A study of Mus musculus with 4 samples.

Results

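The 9 genes described here encode surface and signalling proteins of the B cell antigen receptor: the receptor's signalling chains Cd79a and Cd79b, the surface proteins Ms4a1 (CD20), Cd22 and Cd81, the kinases Blk, Syk and Btk, and the adaptor Blnk. They were taken from a fixed list of names, and all 9 were found among the 24421 gene columns of each of 4 single-cell tables from mouse cells sorted as CD138+ B220-, the surface profile of plasma cells. 3 of the 4 libraries came from donor-derived myeloma cells on the C57/BL6 background: 2 from bone marrow (VQ bone marrow, replicates 1 and 2) and 1 from a lymph node (VQ lymph node). The sample titles name this myeloma material VQ-D2, written VQ here, and the labels do not say what D2 stands for. Per the labels, the VQ cells carry the V{kappa}*MYC transgene, an Nras LSL Q61R/+ allele and IgG1-Cre, the animal is marked as a recipient, and the sorted cells are donor-derived. The MYC transgene is under kappa light chain elements and is switched on by somatic hypermutation, and the Nras allele needs Cre to be expressed. 1 library came from bone marrow plasma cells of wild-type C57/BL6 mice. The Cre is driven from the IgG1 locus, so recombination is directed to activated B cells that use it. Whether the VQ libraries hold 1 clone or several, or came from 1 animal or several, is not stated. The genes were followed in 5 sums of cells. Cells in which Jchain, the joining chain of polymeric antibody, took under 5% of the UMIs (counted transcripts) gave 1 sum in each VQ library and 1 in wild type, and wild-type cells with at least 5% gave the fifth.

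The antigen receptor consists of a membrane antibody bound to the Cd79a and Cd79b chains, whose cytoplasmic tails are phosphorylated by Src-family kinases such as Blk and then bind the kinase Syk. Syk phosphorylates the adaptor Blnk, which brings Btk to its substrate, a phospholipase C that starts the calcium response. Cd22 carries inhibitory motifs that recruit phosphatases, Cd81 is a tetraspanin of the B cell coreceptor complex, and Ms4a1 is a membrane protein that marks B cells. Plasma cells, the antibody-secreting end stage of the lineage, are known for low levels of much of this apparatus, while Cd81 is used in the clinic to describe myeloma cells.

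RefSeq promoter windows of GRCm38.p6, reaching from 250 bases before to 50 bases after a start site, were on hand for 6 of the 9 genes, in 7 windows. Cd79b, Ms4a1 and Blk had no entry. Printed here are Cd79a and Cd22, which had no UMI in the VQ cells compared, Syk, which was low in them, and Blnk and Cd81, which were kept, each 5′ to 3′ on the gene's strand. Capitals mark matches to 1 of 5 motifs searched on both strands.
Cd79a (chr7:24897247-24897546, plus strand): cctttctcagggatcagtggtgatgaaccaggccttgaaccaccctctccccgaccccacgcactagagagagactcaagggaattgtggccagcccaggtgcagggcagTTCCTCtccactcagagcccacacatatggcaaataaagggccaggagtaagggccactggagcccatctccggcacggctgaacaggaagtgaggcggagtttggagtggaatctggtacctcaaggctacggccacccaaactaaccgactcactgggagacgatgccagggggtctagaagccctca
Cd22 (chr7:30878979-30879278, minus strand): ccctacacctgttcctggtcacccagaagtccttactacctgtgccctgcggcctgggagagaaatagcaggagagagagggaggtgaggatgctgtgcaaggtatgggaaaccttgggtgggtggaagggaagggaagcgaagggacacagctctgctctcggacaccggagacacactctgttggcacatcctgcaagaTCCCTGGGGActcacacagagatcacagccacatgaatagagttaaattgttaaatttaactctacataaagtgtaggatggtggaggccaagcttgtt
Syk (chr13:52583187-52583486, plus strand): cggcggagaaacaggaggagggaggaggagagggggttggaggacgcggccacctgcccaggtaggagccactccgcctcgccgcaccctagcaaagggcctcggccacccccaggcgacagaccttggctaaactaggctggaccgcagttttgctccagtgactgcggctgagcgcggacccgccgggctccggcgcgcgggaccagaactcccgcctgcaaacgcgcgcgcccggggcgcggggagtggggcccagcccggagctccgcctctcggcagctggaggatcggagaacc
Blnk (chr19:40994172-40994471, minus strand): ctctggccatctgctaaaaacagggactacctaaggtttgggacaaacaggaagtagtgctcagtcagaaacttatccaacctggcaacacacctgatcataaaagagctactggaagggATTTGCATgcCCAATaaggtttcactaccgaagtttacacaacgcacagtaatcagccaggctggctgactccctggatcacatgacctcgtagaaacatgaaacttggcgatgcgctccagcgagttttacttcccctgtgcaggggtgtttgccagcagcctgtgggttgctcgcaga
Cd81 (chr7:143052500-143052799, plus strand): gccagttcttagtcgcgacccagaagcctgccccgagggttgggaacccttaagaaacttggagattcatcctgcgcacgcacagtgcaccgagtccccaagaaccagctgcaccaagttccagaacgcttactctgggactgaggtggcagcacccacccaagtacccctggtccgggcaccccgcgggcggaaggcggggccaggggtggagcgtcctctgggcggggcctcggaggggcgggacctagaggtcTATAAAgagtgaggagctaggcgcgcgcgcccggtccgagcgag
The motifs were the EBF palindrome, the octamer ATGCAAAT, the PU.1 core GAGGAA, the CCAAT box and the TATA box TATAAA. The Cd22 window held the EBF palindrome, which 0.904% of 32851 promoter windows hold. The Blnk window held the octamer on the opposite strand, present in 1.74% of windows, and a CCAAT box 2 bases away, a motif present in 37.4%. The Cd79a window held the PU.1 core, found in 28.3% of windows, on the opposite strand, as did the Btk window. A second Syk window, which is not printed, held it on the gene's strand. The Cd81 window held TATAAA, found in 13.6% of windows, but downstream of the annotated start. The Syk window printed held none of these letters and was 72.0% G or C with 31 CpG dinucleotides, against a median of 52.7% over all windows. Of the 7 windows, no pair shared the octamer or the EBF palindrome.

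The libraries held 245 cells (VQ bone marrow replicate 1), 188 cells (replicate 2), 185 cells (VQ lymph node) and 163 cells (wild type), with 1066884, 457158, 803752 and 340253 UMIs in the same order, and no cell barcode was shared between libraries. The 5 sums held 226, 170 and 185 VQ cells, 57 wild-type cells under 5% Jchain and 106 wild-type cells at or above it. All 13 plasma cell markers were detected in every sum. In CPM (UMIs scaled to a common library total) they summed to 13660 and 14860 in VQ bone marrow and 14750 in VQ lymph node. In wild type they summed to 7053 CPM in cells under 5% and 25110 CPM in those at or above it. In the 57 wild-type cells under 5%, markers of B cell precursors summed to 6833 CPM, with 14 of 14 detected. The same list summed to 42.1 and 27.0 CPM in VQ bone marrow, 23.6 CPM in VQ lymph node and 172 CPM in wild-type cells at or above 5%. Mature B cell markers summed to 152, 164 and 131 CPM in the VQ sums, 3383 CPM in wild-type cells under 5% and 4083 CPM in those at or above it, and Pax5 was at 0 in every sum. Neutrophil markers summed to 1055 and 2948 CPM in VQ bone marrow, 14.9 CPM in VQ lymph node, 7442 CPM in wild-type cells under 5% and 63.7 CPM in those at or above it. Few cells had at least 10 UMIs of these markers. They were 3 and 4 cells in VQ bone marrow, with 0.592% and 0.856% of the UMIs, and 1 wild-type cell under 5%, with 1.62%. The markers of the wild-type cells under 5% thus go against a label of plasma cells alone. Between 3% and 5% Jchain lay 7 wild-type cells, with 9 Cd79b, 9 Cd81, 4 Blnk and 1 Syk UMIs. Between 5% and 7% lay 6, with 7 Cd79b, 11 Cd81, 1 Blnk and 2 Syk UMIs. A sum per library cannot tell fewer cells with a transcript apart from less of it per cell, and shares of cells at equal depth are therefore given as well.

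**Figure D1:**
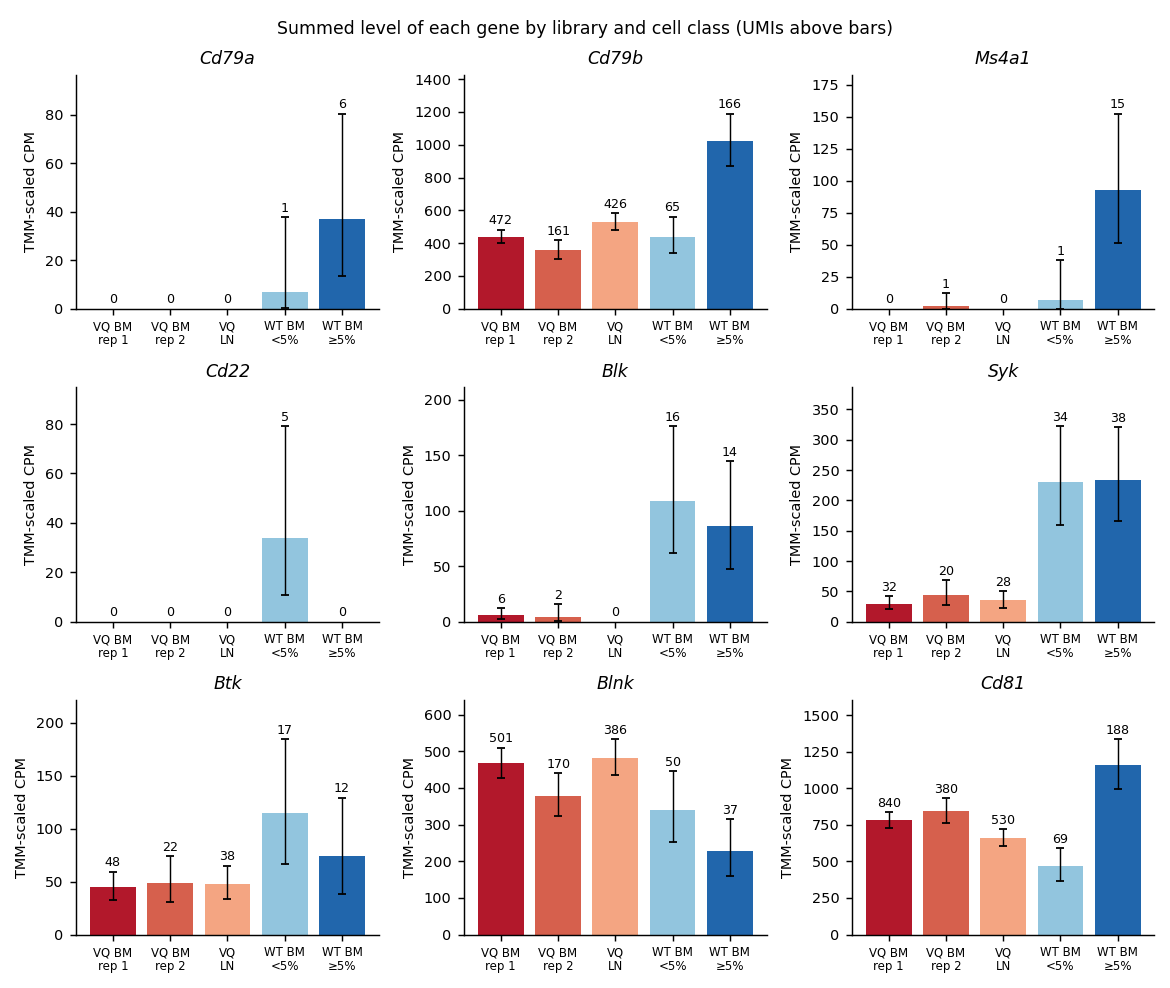
TMM-scaled CPM (vertical axis, linear, a separate scale for each gene) of the 9 genes in the sums of VQ bone marrow replicates 1 and 2, VQ lymph node, wild-type cells under 5% Jchain and wild-type cells at or above 5%, left to right. Bars are levels, error bars are exact 95% counting intervals, and numbers are UMIs. Cd79b, Blnk and Cd81 stay above 200 CPM in every sum, Syk sits under 50 CPM in the 3 VQ sums and above 200 CPM in both wild-type sums, and Cd79a has UMIs in wild type alone.

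The 2 receptor chains were counted in very different numbers in all classes. Cd79b (chr11:106311341-106314762, minus strand) had 472 UMIs in VQ bone marrow replicate 1, 161 in replicate 2, 426 in VQ lymph node, 65 in wild-type cells under 5% Jchain and 166 in those at or above 5%. Scaled for depth and composition by TMM, these were 440.2, 358, 532, 440.2 and 1022 CPM in the same order. Positions here and for the other genes are those of GRCm38 (GENCODE vM21), where all 9 are protein coding. The wild-type cells rich in Jchain stood above all 4 other sums, which lay close together. VQ bone marrow averaged 399 ± 58.0 CPM (SD, n = 2). Against wild-type cells at or above 5% it was lower by a log2 fold change of -1.34 (SE 0.18, edgeR quasi-likelihood adjusted p = 6.64e-12), or 2.46-fold lower with a 95% counting interval of 2.06 to 2.92. Against wild-type cells under 5% the log2 fold change was -0.12 (SE 0.22, adjusted p = 0.721 by edgeR), which does not show that the levels are equal. Without cells carrying 2 or more UMIs of T cell, neutrophil or precursor markers it was -0.76 (edgeR adjusted p = 0.129, with a range of 0.0618 to 1.0 over the alternatives).

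Cd79a (chr7:24897381-24902197, plus strand), the partner without which Cd79b is not assembled into a receptor, had 0 UMIs in each of the 3 VQ sums. It had 1 UMI in wild-type cells under 5% and 6 UMIs, in 5 of 106 cells, in those at or above 5%. A count of 0 allows up to 1.33% of cells with a Cd79a UMI in VQ bone marrow replicate 1, 1.76% in replicate 2 and 1.62% in VQ lymph node. Cd79a was thus near the limit of detection also in wild type, and it did not pass the filter for the fitted test. Against wild-type cells at or above 5% its level was at least 18.7-fold lower in VQ bone marrow and at least 9.86-fold lower in VQ lymph node, counting 3 UMIs over the group at 0. Of the 6 wild-type UMIs, 3 lay in 8 cells with at least 2 UMIs of precursor markers, which held 10.5% of the UMIs of the class. Without cells carrying markers of other types 3 UMIs remained, too few for a bound. The 27 wild-type cells with at least 2 UMIs of B cell precursor markers, a stage at which both chains are normally made, held a single Cd79a UMI beside 34 Cd79b UMIs. Whether the counting covers the 3′ end of Cd79a transcripts, which this kit reads, could not be checked from the tables, so its low counts and the bounds above may not reflect its transcript level.

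Of the surface proteins, Ms4a1 (chr19:11249675-11266241, minus strand) was counted mainly in the Jchain-rich wild-type cells. It had 0 UMIs in VQ bone marrow replicate 1, 1 in replicate 2, 0 in VQ lymph node, 1 in wild-type cells under 5% and 15, in 12 cells, in those at or above 5%. VQ bone marrow was lower than the last of these by a log2 fold change of -6.68 (SE 1.11, adjusted p = 3.91e-08 by edgeR). With 1 UMI in VQ bone marrow the counting interval of that fold ran from 21.6-fold to 5916-fold. VQ lymph node was at least 24.6-fold lower than the same cells. All 15 of these UMIs lay in the 78 of 106 cells with at least 3 UMIs of 4 MHC class II genes, which held 82.7% of the UMIs of the class. The antisense gene 4930526L06Rik overlaps Ms4a1 and has a column of its own. Whether counting used the strand is not given in the sources used here.

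Cd22 (chr7:30865402-30880342, minus strand) was detected in wild-type cells under 5% alone, with 5 UMIs in 3 of 57 cells. It had 0 UMIs in each VQ sum and in the 106 wild-type cells at or above 5%, where the limit was 2.83% of cells. Of the 5 UMIs, 2 lay in cells with precursor markers and 2 in 1 cell with T cell or neutrophil markers. The antisense gene Gm29439 overlaps Cd22. VQ bone marrow was at least 17.2-fold and VQ lymph node at least 9.04-fold lower than wild-type cells under 5%.

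Cd81 (chr7:143052739-143067934, plus strand) was the most counted of the 9 genes in every sum. It had 840 and 380 UMIs in VQ bone marrow replicates 1 and 2, 530 in VQ lymph node, 69 in wild-type cells under 5% and 188 in those at or above 5%. These were 784, 846, 662, 467 and 1158 TMM-scaled CPM in the same order. VQ bone marrow, at 814 ± 43.9 CPM (SD, n = 2), lay between the wild-type classes. It was lower than wild-type cells at or above 5% by a log2 fold change of -0.51 (SE 0.17, adjusted p = 0.0120 by edgeR), and higher than those under 5% by 0.80 (SE 0.20, adjusted p = 0.000734 by edgeR). With library totals in place of TMM scaling the first of these was -0.15 (edgeR adjusted p = 0.526, range over the alternatives 0.00939 to 0.759). Without cells carrying markers of other types the second was 0.67 (edgeR adjusted p = 0.186, range 9.42e-06 to 0.833). The transcript R74862 overlaps Cd81 on the opposite strand and has its own column.

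Among the kinases, Syk (chr13:52583173-52648792, plus strand) was low in every VQ sum. It had 32 and 20 UMIs in VQ bone marrow replicates 1 and 2, 28 in VQ lymph node, 34 in wild-type cells under 5% and 38 in those at or above 5%. At 29.9, 44.5, 34.96, 230.3 and 234 TMM-scaled CPM in the same order, the 3 VQ sums did not overlap the 2 wild-type sums, which were alike. VQ bone marrow was 6.85-fold lower (95% counting interval 4.38 to 10.6) than wild-type cells at or above 5%, with a log2 fold change of -2.75 (SE 0.36, adjusted p = 1.58e-12 by edgeR). It was 6.74-fold lower than wild-type cells under 5% (4.24 to 10.6), with a log2 fold change of -2.72 (SE 0.38, adjusted p = 1.80e-11 by edgeR). VQ lymph node was 6.69-fold lower (4.0 to 11.3) than wild-type cells at or above 5% and 6.59-fold lower (3.88 to 11.3) than those under 5%, with no test because both sides are single libraries. Between the wild-type classes, cells under 5% had 0.984 times the Syk level of cells at or above 5% (0.601 to 1.61). The call was lost under DESeq2 against wild-type cells at or above 5% (adjusted p = 0.0576, the highest over the alternatives, whose lowest was 3.54e-12). Against those under 5% it was lost under DESeq2 (adjusted p = 0.124) and in edgeR after thinning to 500 UMIs (adjusted p = 0.102), with a range of 5.29e-14 to 0.124 over the alternatives, and the log2 fold change stayed between -2.83 and -2.46. Syk remained detectable in VQ cells, in 29 of 226, 17 of 170 and 22 of 185 cells.

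Blk (chr14:63372836-63417037, minus strand), a Src-family kinase used mainly in the B lineage, had 6 and 2 UMIs in VQ bone marrow, 0 in VQ lymph node, 16 in wild-type cells under 5% and 14 in those at or above 5%. VQ bone marrow was lower than wild-type cells at or above 5% by a log2 fold change of -3.98 (SE 0.75, adjusted p = 1.72e-06 by edgeR) and lower than those under 5% by -4.31 (SE 0.72, adjusted p = 6.27e-08 by edgeR). VQ lymph node was at least 23.0-fold lower than wild-type cells at or above 5% and at least 28.9-fold lower than those under 5%. Of the 8 Blk UMIs in VQ bone marrow, 7 lay in the 19 of 396 cells with at least 3 UMIs of T cell markers, which held 2.13% of the UMIs, and 1 lay in the other cells. In the same 19 cells Syk and Btk had 0 UMIs. Without cells carrying markers of other types the difference from wild-type cells under 5% was no longer called (log2 fold change -4.70, edgeR adjusted p = 0.285, range over the alternatives 3.34e-09 to 0.285), in a class then reduced to 24 cells.

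Btk (chrX:134542336-134583570, minus strand), the kinase mutated in X-linked immunodeficiency of mice, had 48 and 22 UMIs in VQ bone marrow, 38 in VQ lymph node, 17 in wild-type cells under 5% and 12 in those at or above 5%. Its TMM-scaled levels were 44.8, 49.0, 47.4, 115 and 73.9 CPM in the same order, so the 3 VQ sums were close together below both wild-type sums. The difference from wild-type cells at or above 5% was not called (log2 fold change -0.67, SE 0.49, adjusted p = 0.309 by edgeR). VQ bone marrow was lower than wild-type cells under 5% by -1.31 (SE 0.45, adjusted p = 0.0169 by edgeR). Without cells carrying markers of other types it was -0.07 and not called (edgeR adjusted p = 0.975, range over the alternatives 0.00697 to 0.975). In wild type, 14 of the 17 Btk UMIs in cells under 5% lay in the 27 cells with precursor markers, which held 71.6% of the UMIs. A processed pseudogene, Gm15154, overlaps Btk on the opposite strand.

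Blnk (chr19:40928927-40994535, minus strand), the adaptor between Syk and Btk, was the 1 gene of the 7 tested that rose in VQ bone marrow against wild-type cells at or above 5%. It had 501 and 170 UMIs in VQ bone marrow, 386 in VQ lymph node, 50 in wild-type cells under 5% and 37 in those at or above 5%. These were 467, 378, 482, 339 and 228 TMM-scaled CPM, with all VQ sums above both wild-type sums. The log2 fold change of VQ bone marrow was 0.91 (SE 0.25, adjusted p = 0.00183 by edgeR) against wild-type cells at or above 5%, a level 1.94 times as high (95% counting interval 1.39 to 2.77). Relative to cells under 5% it was 0.34 (SE 0.23, adjusted p = 0.289 by edgeR). VQ lymph node had 2.12 times the level of wild-type cells at or above 5% (1.51 to 3.05) and 1.42 times that of cells under 5% (1.06 to 1.95). The higher level was not called when every cell was thinned to 500 UMIs (log2 fold change 0.36, edgeR adjusted p = 0.619, range over the alternatives 2.70e-06 to 0.619). Nor was it called by DESeq2 (0.84, adjusted p = 0.513) or in an edgeR likelihood ratio test with a preset coefficient of variation of 0.4 (0.89, adjusted p = 0.568).

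The number of adaptor UMIs per kinase UMI differed between VQ and wild-type sums. Blnk had 15.7 UMIs per Syk UMI (95% counting interval 10.9 to 23.1) in VQ bone marrow replicate 1, 8.50 (5.33 to 14.3) in replicate 2 and 13.8 (9.39 to 21.0) in VQ lymph node. It had 1.47 (0.932 to 2.34) in wild-type cells under 5% and 0.974 (0.602 to 1.57) in those at or above 5%. The lowest VQ interval lay above the highest wild-type interval. Blnk to Cd79b, by contrast, was 1.06 (0.934 to 1.21), 1.06 (0.846 to 1.32) and 0.906 (0.787 to 1.04) in the VQ sums and 0.769 (0.521 to 1.13) in wild-type cells under 5%, and stood lower, at 0.223 (0.152 to 0.320), in the Jchain-rich cells alone. These ratios need no scaling between libraries, and each is compared only with the same ratio in other sums.

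**Figure D2:**
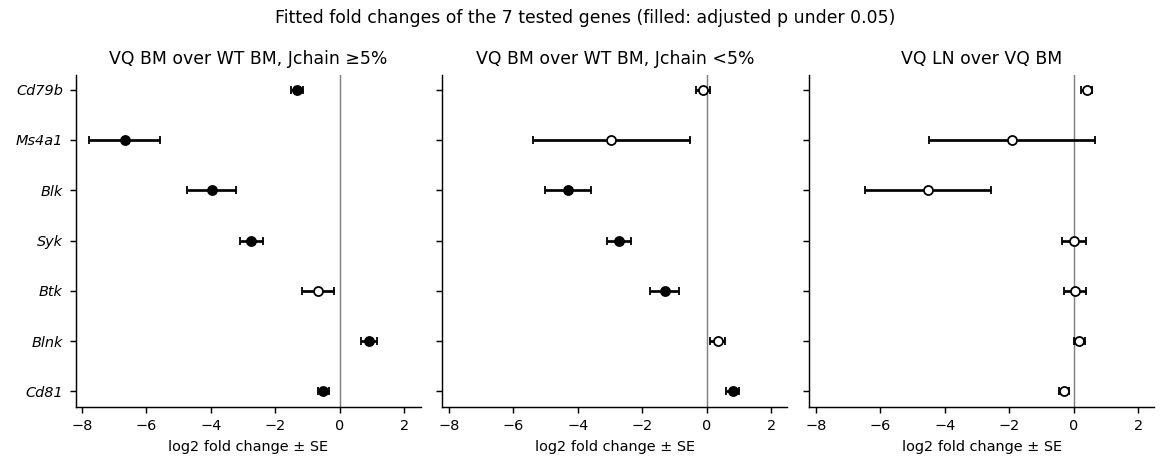
Fitted log2 fold changes (horizontal axis) with SE of the 7 genes that passed the filter on low counts, for VQ bone marrow over wild-type cells at or above 5% Jchain (left), VQ bone marrow over wild-type cells under 5% (middle) and VQ lymph node over VQ bone marrow (right). Filled points have an edgeR adjusted p under 0.05. Syk and Blk lie left of 0 in both comparisons with wild type, and no point is filled for the lymph node.

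7 of the 9 genes passed the filter, Cd79a and Cd22 being too low. In VQ bone marrow against wild-type cells at or above 5%, 5 of the 7 fell (Cd79b, Ms4a1, Blk, Syk and Cd81), 1 rose (Blnk) and 1 was not called, beside 31.5% called among all 8048 genes tested (13.8% lower and 17.7% higher). Against wild-type cells under 5%, 3 fell (Blk, Syk and Btk) and 1 rose (Cd81), beside 27.7% of all genes (13.6% lower and 14.2% higher). Both comparisons use the same VQ bone marrow sums and cells of the same wild-type library, so the calls of Syk and Blk in both are not independent. The spread comes from the VQ bone marrow pair alone. The other groups, VQ lymph node and the 2 classes of the 1 wild-type library, are taken to share it. In the first comparison TMM gave a median log2 fold change over all genes of 0.17, with 1422 higher and 1110 lower, and library totals gave 0.54, with 2124 higher and 757 lower. Under either scaling Syk, Blk, Ms4a1 and Cd79b were lower and Blnk higher. DESeq2 called Cd79b alone against wild-type cells at or above 5% and 0 of the 7 against those under 5%, giving no adjusted p for Blk and Ms4a1 in the first and for Ms4a1 in the second. An edgeR fit with a preset coefficient of variation of 0.4 called 3 (Ms4a1, Blk and Syk) and 2 (Blk and Syk).

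The lymph node did not differ from VQ bone marrow in any of the 7 genes at an adjusted p under 0.05, beside 3.32% of all genes called (1.37% lower and 1.95% higher). Before adjustment the edgeR test passed 0.05 for 2 of them, Cd79b (log2 fold change 0.40, SE 0.16) and Blk (0 UMIs in VQ lymph node), and DESeq2 called 0. Cd79b was at 532 CPM in VQ lymph node, against 440.2 and 358 CPM in VQ bone marrow. Its lymph node value lay above the VQ bone marrow pair, as did that of Blnk, and those of Cd81 and Blk lay below. With 1 library against 2 this carries little weight. Blnk differed by 0.17 (SE 0.17), Cd81 by -0.30 (SE 0.16), Btk by 0.04 (SE 0.33) and Syk by 0.01 (SE 0.36), none of which was called. In simulated counts of this depth, the test recovered 50 of 100 genes with a 2-fold difference between lymph node and VQ bone marrow. With a 4-fold difference it recovered 99 of 100. The counts were drawn with the spread that the fit itself had estimated, and genes with few expected counts were not among those changed. These rates thus hold only under that spread and not for the sparser genes. A missing call does not show equal levels.

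Set against wild type, VQ lymph node differed at least 2-fold in 4 of the 7 genes from cells at or above 5%, with Ms4a1, Blk and Syk lower and Blnk higher, beside 43.2% of all genes (19.7% lower and 23.5% higher). It differed at least 2-fold in 3 of the 7 from cells under 5%, with Blk, Syk and Btk lower, beside 43.4% (21.3% lower). Of all 9 genes these were 4, with Cd22, and without cells carrying markers of other types 1, Syk, remained. In that setting Blk, Ms4a1 and Cd22 had 0 UMIs in VQ lymph node and 1 UMI each in the wild-type cells, too few for a bound. Cd79b was 1.92-fold lower (95% counting interval 1.60 to 2.30) and Cd81 1.75-fold lower (1.47 to 2.07) in VQ lymph node than in wild-type cells at or above 5%. Against cells under 5%, Cd79b had 1.21 times (0.929 to 1.59) and Cd81 1.42 times (1.10 to 1.85) the level. Btk was 2.43-fold lower (1.28 to 4.40) than in cells under 5%, and 0.991 times their level (0.256 to 8.49) without the cells carrying other markers. Within wild type, cells under 5% had a 2.32-fold lower Cd79b level (1.73 to 3.14), a 2.48-fold lower Cd81 level (1.87 to 3.31) and a 13.6-fold lower Ms4a1 level (2.10 to 574) than cells at or above 5%, so 3 of the 7 genes were at least 2-fold apart, beside 40.4% of all genes (18.5% lower and 21.9% higher). Without the cells carrying other markers the Cd79b level was 0.697 times that of cells at or above 5% (0.447 to 1.05), and that of Cd81 0.426 times (0.257 to 0.673). With all cells kept, the folds of cells under 5% for Blk, Btk and Blnk were 1.26 (0.575 to 2.78), 1.56 (0.701 to 3.58) and 1.49 (0.953 to 2.34), with intervals that include 1. Without the cells carrying other markers, Blk had 1 UMI in cells under 5% and 13 in those at or above it, and Btk 2 and 9.

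**Figure D3:**
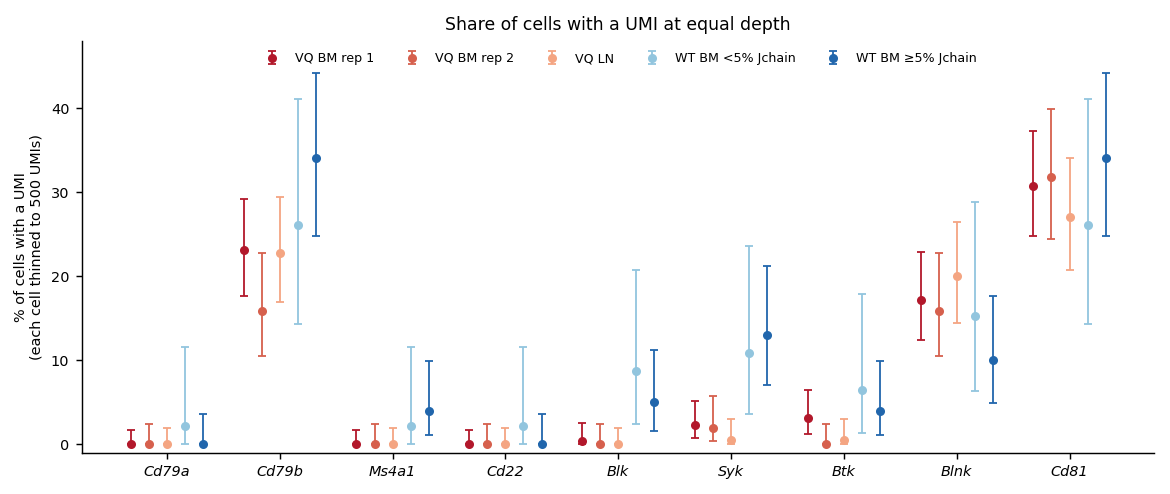
Percent of cells with a UMI of each gene after every cell was thinned to 500 UMIs (vertical axis), with exact 95% Clopper-Pearson intervals, in the same 5 sums from left to right within each gene. Cd79b, Blnk and Cd81 lie at or under 34.0% everywhere, and Syk is at or under 2.26% in the VQ sums and at or above 10.9% in wild type.

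Cells differed in depth, with a median of 4700 and 2646 UMIs in the 2 VQ bone marrow sums, 3978 in VQ lymph node, 2046 in wild-type cells under 5% and 1998.5 in those at or above 5%, so shares were compared at 500 UMIs per cell. Thinning left out 5 and 19 VQ bone marrow cells, 0 VQ lymph node cells, 11 wild-type cells under 5% and 6 at or above it. A Syk UMI was then found in 2.26% (95% interval 0.739 to 5.2) and 1.99% (0.412 to 5.70) of VQ bone marrow cells, 0.541% (0.0137 to 2.98) of VQ lymph node cells, 10.9% (3.62 to 23.6) of wild-type cells under 5% and 13.0% (7.11 to 21.2) of those at or above 5%. Unthinned, the Syk shares were 12.8% and 17 of 170 cells in VQ bone marrow, 11.9% in VQ lymph node, and 33.3% and 25.5% in wild-type cells under and at or above 5%. In both forms every VQ share was below both wild-type shares. Each thinned share is from 1 random draw of UMIs. Another draw was made from the same 100 Jchain-rich cells, split by MHC class II UMIs. It found Syk in 7 of 78 cells with at least 3 such UMIs and 1 of 22 with fewer, and Blnk in 5 and 0. The shares of Syk and Blnk in these cells thus depend on the draw. Cd79b was found in 23.1% (17.7 to 29.2), 15.9% (10.5 to 22.7), 22.7% (16.9 to 29.4), 26.1% (14.3 to 41.1) and 34.0% (24.8 to 44.2) of thinned cells. Its unthinned shares, 74.8%, 52.4%, 75.1%, 50.9% and 70.8%, gave another order, with 2 VQ sums above the Jchain-rich wild-type cells. Blnk was found in 17.2% and 15.9% of thinned VQ bone marrow cells, 37 of 185 VQ lymph node cells, and 15.2% and 10 of 100 wild-type cells under and at or above 5%. Cd81 was found in 30.8%, 31.8%, 27.0%, 26.1% and 34.0% of thinned cells, and the intervals of neighbours in these orders overlapped for both genes.

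Free transcripts can give UMIs in droplets whose cell lacks a gene, and cells with markers of another type serve as a guide to that level. In VQ bone marrow, Cd79b had a UMI in 2 of 13 cells (replicate 1, median 1014 UMIs) and 2 of 6 cells (replicate 2, median 527.5 UMIs) with at least 3 T cell marker UMIs, against 169 of 226 and 89 of 170 of all cells under 5% Jchain. Blnk had a UMI in 2 of 13 and 1 of 6 of these marker-bearing cells, and Cd81 in 3 of 13 and 2 of 6. These cells are few and shallower than the rest, and Cd81 is made by T cells too. Syk had a UMI in 0 of 13 and 0 of 6 of them, and in 1 of 3 and 2 of 4 VQ bone marrow cells with at least 10 neutrophil marker UMIs. In wild type, the 7 cells with at least 3 T cell marker UMIs (median 3612 UMIs) had a UMI of Syk in 5, of Cd81 in 5, of Blnk in 4, of Cd79b in 3 and of Blk in 3, and Jchain was found in 5 of them. Of these 7 cells, 2 had at least 5% Jchain. Those under 5% with a Blnk UMI also carried precursor markers, because Blnk had 0 UMIs in cells with T cell or neutrophil markers alone. Some of the 7 thus carried markers of the B lineage too. Their shares were not low, and no background level for Syk or the other genes could be read from them. At least 1 of the 9 genes was found in 58.4% (51.6 to 64.9) and 49.0% (40.8 to 57.3) of thinned VQ bone marrow cells, 57.8% (50.4 to 65.1) of VQ lymph node cells, 58.7% (43.2 to 73.0) of wild-type cells under 5% and 73.0% (63.2 to 81.4) of those at or above 5%. The Jchain-rich wild-type cells were highest, but their interval overlapped those of all other sums except VQ bone marrow replicate 2. In another random draw from the same Jchain-rich cells, made by MHC class II subset, 53 of 78 and 9 of 22 cells had at least 1 of the genes.

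**Figure D4:**
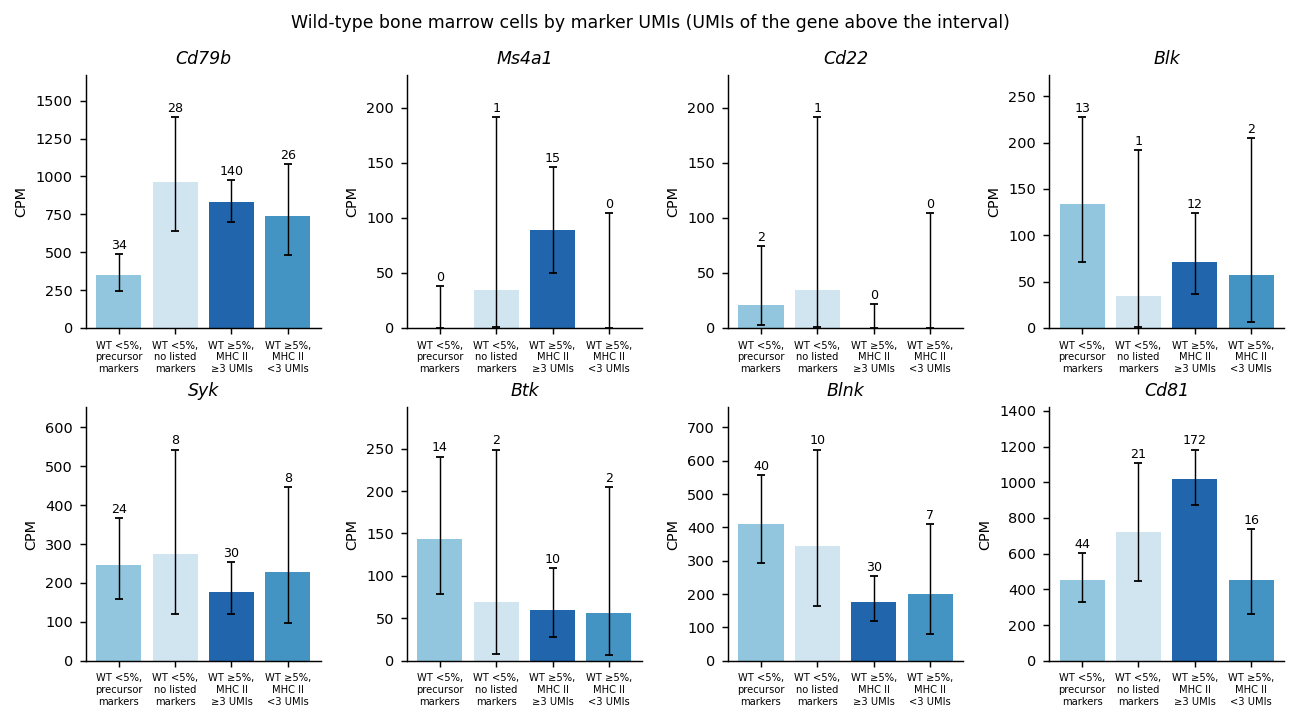
CPM (vertical axis, linear, a separate scale for each gene) of 8 of the genes in wild-type cells, split by markers: cells under 5% Jchain with at least 2 UMIs of B cell precursor markers, those without listed markers of other types, cells at or above 5% with at least 3 MHC class II UMIs and those with fewer. Error bars are exact 95% counting intervals and numbers are UMIs of the gene. CPM are by UMI total, without TMM scaling. Blnk is higher in the first subset than in the third, and Cd81 is highest in the third.

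Wild-type cells were not uniform in these genes. CPM of subsets are by UMI total, without TMM scaling. On that scale all Jchain-rich cells together were at 814 CPM for Cd79b, 922 CPM for Cd81 and 186 CPM for Syk. The split by MHC class II transcripts, which are typical of recently formed plasma cells, was chosen after the data were seen and is given without a test. Among the 106 Jchain-rich cells, the 78 with at least 3 MHC class II UMIs had 172 of the 188 Cd81 UMIs, or 1019 CPM (95% counting interval 872 to 1183), against 454 CPM (260 to 738) in the other 28. The median depth was 2210 UMIs in the 78 cells and 997 in the other 28. Cd79b was at 829 CPM (698 to 979) in the 78 cells and 738 CPM (482 to 1082) in the other 28, and Syk at 178 CPM (120 to 254) and 227 CPM (98.1 to 448), so the intervals of both genes overlapped. Among the 57 cells under 5%, the 27 with precursor markers had 40 of the 50 Blnk UMIs and 13 of the 16 Blk UMIs at 71.6% of all UMIs, and 34 of the 65 Cd79b UMIs. Cd79b was at 348 CPM (241 to 487) in those 27 cells and 964 CPM (641 to 1394) in the 24 without listed markers of other types, intervals that did not overlap. Blnk was at 410 CPM (293 to 558) and 344 CPM (165 to 634) in the same subsets. The 6 cells with T cell or neutrophil markers but none of the precursor kind are not plotted.

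The genes around these 9 were counted from 5 lists of pathway genes, and in VQ bone marrow most of those that changed fell. Levels of single pathway genes, here and below, are TMM-scaled CPM. Over all genes tested, 13.8% were called lower and 17.7% higher against wild-type cells at or above 5%. Of 10 tested coreceptor and other surface genes, 6 fell and 1 rose against wild-type cells at or above 5%, with a median log2 fold change of -1.47, against 0.17 over all genes. Fcrla, an Ig-binding Fc receptor-like protein, was at 38.2 and 64.5 CPM in VQ bone marrow and 690 CPM in wild-type cells at or above 5% (log2 fold change -3.87, adjusted p = 3.73e-52 by edgeR). The tetraspanin Cd53 was at 94.2 and 86.8 CPM in VQ bone marrow and 671 CPM in wild-type cells (-2.87), and Ptprcap, which binds the phosphatase CD45, fell by 2.81 on the log2 scale. The 1 that rose was Cd24a, a heavily glycosylated surface protein, at 1738 and 1918 CPM in VQ bone marrow and 702 CPM in wild-type cells (1.38, adjusted p = 1.57e-13 by edgeR). Of 12 tested inhibitory receptors and phosphatases, 5 fell and 0 rose: the phosphatase Ptpn22 (-4.66), the inhibitory IgG receptor Fcgr2b (-3.07), the adaptor Dok3 (-2.67), the phosphatase Ptpn6 (-2.40) and the adaptor Lax1 (-1.62).

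**Figure D5:**
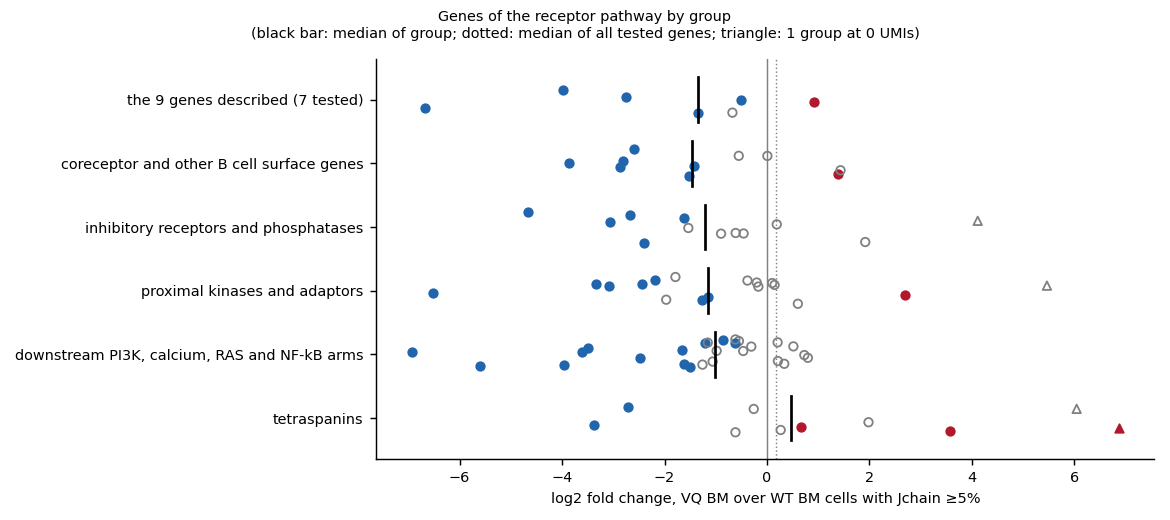
Log2 fold changes of VQ bone marrow over wild-type cells at or above 5% Jchain (horizontal axis) for the 7 tested genes and for 5 lists of pathway genes (rows). Filled points, blue lower and red higher, have an edgeR adjusted p under 0.05, open points do not, and triangles are genes with 0 UMIs in 1 group, whose fitted value is no bound. Each list but the tetraspanins has its median, the black bar, at or below -1.02, against 0.17 for all genes (dotted).

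Of 17 tested proximal kinases and adaptors, 7 fell and 1 rose against the same cells, with a median of -1.15. The adaptor Lat2 was at 1.86 and 2.22 CPM in VQ bone marrow and 203 CPM in wild-type cells (log2 fold change -6.52, adjusted p = 3.32e-25 by edgeR). Sh3kbp1 (-3.34) and the adaptor Nck2 (-3.08) fell too, while Fyn, a Src-family kinase like Blk, rose by 2.69 (adjusted p = 8.28e-05 by edgeR) and was at 110 CPM or more in both VQ bone marrow sums and 18.5 CPM in wild-type cells. Of 26 tested genes of the downstream PI3K, calcium, RAS and NF-kB arms, 12 fell and 0 rose, with a median of -1.02. Those with the largest differences were the RAS exchange factor Rasgrp3 (-6.93), the calcium channel of the endoplasmic reticulum Itpr1 (-5.60) and Arhgdib (-3.96, adjusted p = 2.77e-53 by edgeR). Of 10 tetraspanins, the family of Cd81, 3 rose and 2 fell, with a median of 0.47, or 0.02 with the 2 genes at 0 in 1 group set to their bounds, and these counts lie near the shares over all genes. Tspan3 rose by 3.56 and Tspan13 by 0.67, Tspan4 was called higher from 0 UMIs in wild-type cells and was at least 1.53-fold higher, and Tspan32 (-3.38) and Tspan14 (-2.71) fell.

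Of the 57 wild-type cells under 5%, 27 had at least 2 precursor marker UMIs and 1 had at least 10 neutrophil marker UMIs. Against this sum, 8 of the 10 surface genes fell and Cd24a rose (13.6% of all genes were called lower and 14.2% higher), with Il7r, a receptor of B cell precursors and T cells, at -3.82. Ptprcap (-3.25) and Cd53 (-2.43) fell as well. Of the inhibitory genes 8 of 12 fell and 0 rose, led by Cd72 (-5.05), Ptpn22 (-3.80) and Dok3 (-3.27). Of the proximal genes 9 of 17 fell and 0 rose, with Lat2 at -6.48 and Sh3kbp1 at -4.12. Of the downstream genes 13 of 26 fell, led by Itpr1 (-6.84), Rasgrp3 (-5.08) and Prkcb (-4.66). Of the tetraspanins, Tspan31 (1.57), Cd9 (1.45) and Tspan13 (0.87) rose, and Tspan32 (-4.84) and Tspan14 (-2.84) fell. The part of precursor and neutrophil cells in these counts was not tested.

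Between VQ lymph node and VQ bone marrow 5 of the 10 surface genes fell and 0 rose, beside 1.37% lower and 1.95% higher among all genes. Cd24a was at 845 CPM in VQ lymph node and 1738 and 1918 CPM in VQ bone marrow (log2 fold change -1.11, adjusted p = 3.04e-11 by edgeR). Il2rg (-1.17), Ptprcap (-1.12) and Cd52 (-0.80) fell, and Il7r, at 0 UMIs in VQ lymph node, was at least 4.56-fold lower. Among the proximal genes Hcls1 fell by 0.78, and among the downstream genes Prkcd (-1.18) fell, Pik3cg rose by 0.72 and Arhgdib, at 0 UMIs in VQ lymph node, was at least 11.2-fold lower. 0 of the 12 inhibitory genes and 0 of the 10 tetraspanins were called. T cell markers summed to 37.3 CPM in VQ lymph node, against 92.8 and 76.5 CPM in VQ bone marrow, and neutrophil markers to 14.9 CPM, against 1055 and 2948 CPM, and their part in these differences was not tested.

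Across the 163 wild-type cells no gene ran closely with Cd79a, which had a UMI in 6 of them. The 5 highest Pearson correlations among 4917 genes were those of Cmc1 (0.34), Haus3 (0.34), Foxj2 (0.30), Tmem131 (0.29) and Tbc1d17 (0.28), each with UMIs in 10 to 20 cells of 1 library, which at such sparse counts is a description of those few cells.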

How the data were processed

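Per the labels' protocols, cells were isolated in droplets on a Bio-Rad ddSEQ instrument and made into libraries with Illumina's SureCell 3′ kit. The deposited values are unscaled counts of UMIs for each gene in each barcode that the authors kept at the knee of the barcode ranking, per the file names. The submitters' processing notes name the build mm10. The aligner, counter and strand setting are not given in the sources used here.

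Cells were divided at 5% of UMIs from Jchain, and counts were summed per library and class. The 4 wild-type, VQ lymph node and VQ bone marrow groups (5 sums) entered 1 fit in edgeR 4.0.16 (R 4.3.3): TMM scaling, filterByExpr (8048 genes kept), quasi-likelihood test, Benjamini-Hochberg adjustment over all genes, threshold 0.05. SE is the absolute log2 fold change over the square root of F. All residual variation, 1 degree of freedom, lies in the 2 bone marrow libraries of VQ, and the prior degrees of freedom were infinite, so 1 trend of spread served all genes (common biological coefficient of variation 0.0923). The labels do not say that these 2 came from separate animals, so p-values reflect a spread that may be technical. Their counts differed beyond sampling noise (a chi-square of 1.57 per degree of freedom over 9021 genes), and they were kept as 2 samples.

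Comparisons of single libraries have no test. Their folds are ratios of TMM-scaled CPM with exact conditional 95% counting intervals, and a group at 0 was set to 3 counts over the group, with no fold or call where the other group had 3 UMIs or fewer. Shares have Clopper-Pearson intervals and a limit of 3 cells at 0. Intervals and limits cover counting error only. No doublet caller was run; cells over 3 times the library median were left out as an alternative. Simulated counts were drawn with the common spread that the fit had estimated, and genes with few expected counts were left unchanged. Of 100 genes changed 2-fold and 100 changed 4-fold, 22 and 82 were called for VQ bone marrow against wild-type cells at or above 5% Jchain. Against those under 5%, 25 and 73 were called. A larger spread would lower these rates.

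The genes, lists and tests were chosen with earlier results of these data known. Pathway genes named are up to 3 called genes per list and comparison with the largest change, and all where 5 or fewer were called. Some genes that this rule names are not reported here. For Cd79a, the 5 genes most correlated with it over wild-type cells, of those with a UMI in at least 10 cells, are named. Alternatives covered scaling, tool, filter, Jchain left out or its threshold at 2% or 10%, all VQ cells, cells with markers of other types, thinning and a preset spread.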

Additional observations from a re-analysis of the deposited data

How the results depend on the processing

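The depth of the wild-type sums, 136251 and 204002 UMIs, limits what can be called. The edgeR calls also rest on the small spread of the VQ bone marrow pair (common biological coefficient of variation 0.0923). With infinite prior degrees of freedom that spread was taken as known for every group, and fewer genes were called where a larger one was set. The main fit tested 8048 genes, 7 of the 9 among them. Thinning left 2533 and 4 tested, leaving out cells with markers of other types 7936 and 6, and all VQ cells 8351 and 7. Counts called under these settings are thus out of unlike numbers tested. For VQ bone marrow against wild-type cells at or above 5% Jchain, 2532 genes were called, 6 of the 9 among them. DESeq2 called 256, with 1 of the 9, thinning gave 506, with 2, and the preset spread 576, with 3. Against wild-type cells under 5%, 2233 genes were called, but 193 by DESeq2, 664 without cells carrying markers of other types, 215 after thinning and 525 with the preset spread, with 0, 1, 0 and 2 of the 9 genes in place of 4. For VQ lymph node against VQ bone marrow, 267 genes were called, but 14 by DESeq2, 126 with all VQ cells, 44 after thinning and 30 with the preset spread, and 0 of the 9 in each. Fewer cells or UMIs entered some of these settings, and the cause of the lost calls was not tested. Leaving out cells with markers of other types also changed the make-up of the sums. Against wild-type cells under 5% it moved the median log2 fold change over all genes from 0.084 to 0.757. Of the 9 genes, 4 were at least 2-fold apart between the wild-type classes, but 1 after thinning, and 4 between VQ lymph node and wild-type cells under 5%, but 1 without cells carrying markers of other types, where 3 further genes had 0 UMIs against 1 and were given no bound.

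Of the log2 fold changes refitted for single genes, 182 kept direction and side of the threshold, 22 lost the call, 1 gained it and 8 changed sign. The sign changes were all in differences that were not called: Cd79b against wild-type cells under 5% at the 2% threshold (0.15), and, in lymph node against VQ bone marrow, Syk with library totals (-0.024), DESeq2 (-0.068), all VQ cells (-0.16), thinning (-1.82), deep cells left out (-0.012) and the preset spread (-0.063), and Btk with deep cells left out (-0.086). Without either VQ bone marrow replicate, the Syk level was 0.127 to 0.186 times that of wild-type cells at or above 5%, Cd79b 0.342 to 0.430 times and Blnk 1.62 to 2.05 times. Shares of cells with at least 1 of the 9 genes rose with depth: 78.9%, 80.4%, 77.8%, 78.6% and 86.2% at 1000 UMIs, and 92.9%, 86.5%, 96.2%, 91.2% and 91.5% unthinned, for VQ bone marrow replicates 1 and 2, VQ lymph node, and wild-type cells under and at or above 5%. No paired analysis was possible because wild type and VQ lymph node have 1 library each and share no set of replicate numbers with the VQ bone marrow pair.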

Other observations

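VQ bone marrow also held 19 cells (replicate 1, median 1064 UMIs) and 18 cells (replicate 2, median 699.5 UMIs) with at least 5% Jchain, which entered no comparison. CPM of these cells are by UMI total, without TMM scaling. Cd79b had 14 UMIs in 8 of the 19 cells and 9 UMIs in 5 of the 18, or 640 CPM (95% counting interval 350 to 1074) and 708 CPM (324 to 1343). Syk had 7 UMIs in 7 of the 19 cells and 1 UMI in the 18, or 320 CPM (129 to 659) and 78.6 CPM (1.99 to 438). Blnk had 7 UMIs in 3 cells of replicate 1 and 0 in replicate 2. Cd81 had 12 and 7 UMIs, and Blk had 0 and 3. Replicate 1 gave the 1 Cd79a UMI found in any VQ cell, and Ms4a1, Cd22 and Btk had 0 UMIs in these 37 cells. Mature B cell markers summed to 2011 and 2280 CPM in them, against 152 and 164 CPM in the VQ bone marrow cells under 5%.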
